A study of Mus musculus with 47 samples.

Results

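The arrays described here measured RNA levels in JB6 cells that carried a short hairpin RNA (shRNA) against AnxA2, collected 2 h and 6 h after X-irradiation. They are 12 of the 47 arrays of the study and were taken by line, dose and time as labelled. The groups are 10 cGy at 2 h, 100 cGy at 2 h, 10 cGy at 6 h and 100 cGy at 6 h, with 3 arrays each. JB6 cells come from mouse epidermis, serve as a model of neoplastic transformation and are called progenitor cells in the labels. All of these cells had received the shRNA by retrovirus, had been selected with puromycin and grew in medium with fetal bovine serum. The shRNA is carried by 1 stable line, and the labels do not say whether it is a clone or a pool. They also do not say whether arrays of a group came from separate cultures, so p-values measure only the spread between these arrays, which may be technical. The comparison asks how RNA levels changed between the 2 collection times, with the doses averaged and dose as a covariate; it is called the step below. 2 further sets of arrays were set beside it: 12 arrays of the empty-vector line at the same doses and times, and 6 arrays of untreated (sham-exposed) shRNA cells at 2 h and 24 h. No untreated 6 h group is among the samples used here, so time since irradiation and time in culture cannot be told apart in the step.

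Serum growth factors, handling of a culture and radiation all switch on immediate early genes, whose transcripts are made within minutes and mostly decay within hours. Many encode transcription factors of the AP-1, EGR and NR4A families. A further wave of secreted proteins, among them interleukin 6 family cytokines, chemokines and ligands of the EGF receptor, follows them. Ionizing radiation also activates the transcription factor p53, which raises Cdkn1a, Mdm2 and other genes of cell cycle arrest, apoptosis and DNA repair. These points are background and are not results of these arrays.

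Anxa2 RNA stood lower on every shRNA array than on every vector array. Its log2 signal ranged from 10.85 to 11.23 (median 11.1) on the 12 shRNA arrays and from 12.46 to 12.66 (median 12.58) on the 12 vector arrays, so that the shRNA cells held 36.1% of the vector level. Those values are of the probe set with the highest mean; a further detected probe set ranged from 5.93 to 6.32 and from 6.69 to 7.02, or 60.6% of the vector level, and the remaining one (2.20 to 2.65 and 2.31 to 2.66) lay under the low-signal limit. The labels report a nearly complete knockdown by western blot and in situ hybridization. Anxa2 did not pass the test of the step (log2 difference -0.01 ± 0.07 SE, adjusted p = 0.978). Some markers of epithelial, mesenchymal and other cell types were detected in these cells, which are labelled as epidermal. Of 13 keratinocyte markers on the array 7 were above the low-signal limit of 4.35, among them Krt10 (mean log2 signal 6.81 at 2 h), Jup (6.67) and Krt14, while the defining gene Trp63 (3.33) lay under it. Of 8 simple epithelium markers 2 were above it, Krt8 (5.06) and Cldn3 (6.02), and Krt18 (3.05), Cdh1 (2.34) and Epcam (3.61) lay under it. Of 12 mesenchymal markers 9 were above it, among them Vim (13.32), Col1a2 (13.04) and S100a4 (13.16), and Cdh11 (3.37), Thy1 (3.64) and Lum (3.01) lay under it. The summed level of the keratinocyte markers was 9.11 to 9.26 at 2 h and 9.05 to 9.21 at 6 h. The summed level of the 12 mesenchymal markers was 15.08 to 15.31 at 2 h and 15.04 to 15.11 at 6 h. Among all these markers the keratin gene Krt14 (mean 6.83 at 2 h, 6.08 at 6 h) and the collagen gene Col3a1 (11.68, 11.31) fell and the receptor gene Pdgfrb (8.22, 8.75) rose. Of the other cell types, 5 of 8 leukocyte, 4 of 9 muscle, 3 of 6 melanocyte and 1 of 7 endothelial markers were above the low-signal limit. A signal above that limit therefore does not identify a cell type. Of the leukocyte, simple epithelium, endothelial, melanocyte and muscle markers 0 were called in either direction by limma, beside 16.3% of all tested genes. Genes with a mean signal in the bottom 30% were not tested. Many of these markers could therefore not have been called, and nothing is read from the count. 2 arrays stood apart in a measure of RNA quality. The Gapdh 3′ minus 5′ probe set difference was 1.062 on 10 cGy 6 h replicate 1 and 0.492 on 100 cGy 2 h replicate 2, against -0.061 to 0.163 on the other 10 arrays. Their part in the results was not tested beyond leaving both out, with the values given below.

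RNA of some secreted inflammatory and growth factors and of some immediate early genes was lower at 6 h than at 2 h after irradiation. The largest of these falls exceeded the largest rise among called genes. Il6 fell 7.48-fold, Ccn2 and Nr4a1 5.62-fold, Has2 5.44-fold and Lif 5.12-fold. The rises were smaller, and the stress chaperone Hspa1b rose 2.32-fold and Rsrp1 2.08-fold. Of 8675 tested genes 1418 (16.3%) passed the limma test at an adjusted p of 0.05, with 768 (8.85%) higher and 650 (7.49%) lower at 6 h. Changes of at least 2-fold were found in 50 of these genes, 7 higher and 43 lower. The median log2 difference over all tested genes was 0.02. All 6 arrays at 6 h lay above all 6 at 2 h for 486 genes (5.60%), and below them for 396 (4.56%). The first principal component of the 12 arrays, with 35.1% of the variance, separated the times (8.0 to 18.7 at 6 h, -15.1 to -9.2 at 2 h). Without both arrays of raised Gapdh difference 1729 genes were called, 1297 of them among the 1418. Arrays of one time that carried the same replicate number at both doses deviated together in 5 of 6 pairs, with correlations of 0.36 to 0.48 at 2 h and -0.07 to 0.36 at 6 h. With the replicate number within a time as a random block in limma, an alternative chosen after seeing the data, the estimated correlation was 0.28 and 952 genes were called, 497 higher and 455 lower. All 952 were among the 1418, and the 30 genes named for the largest rise or fall were among them, with adjusted p from 2.23e-11 to 9.02e-04.

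**Figure D1:**
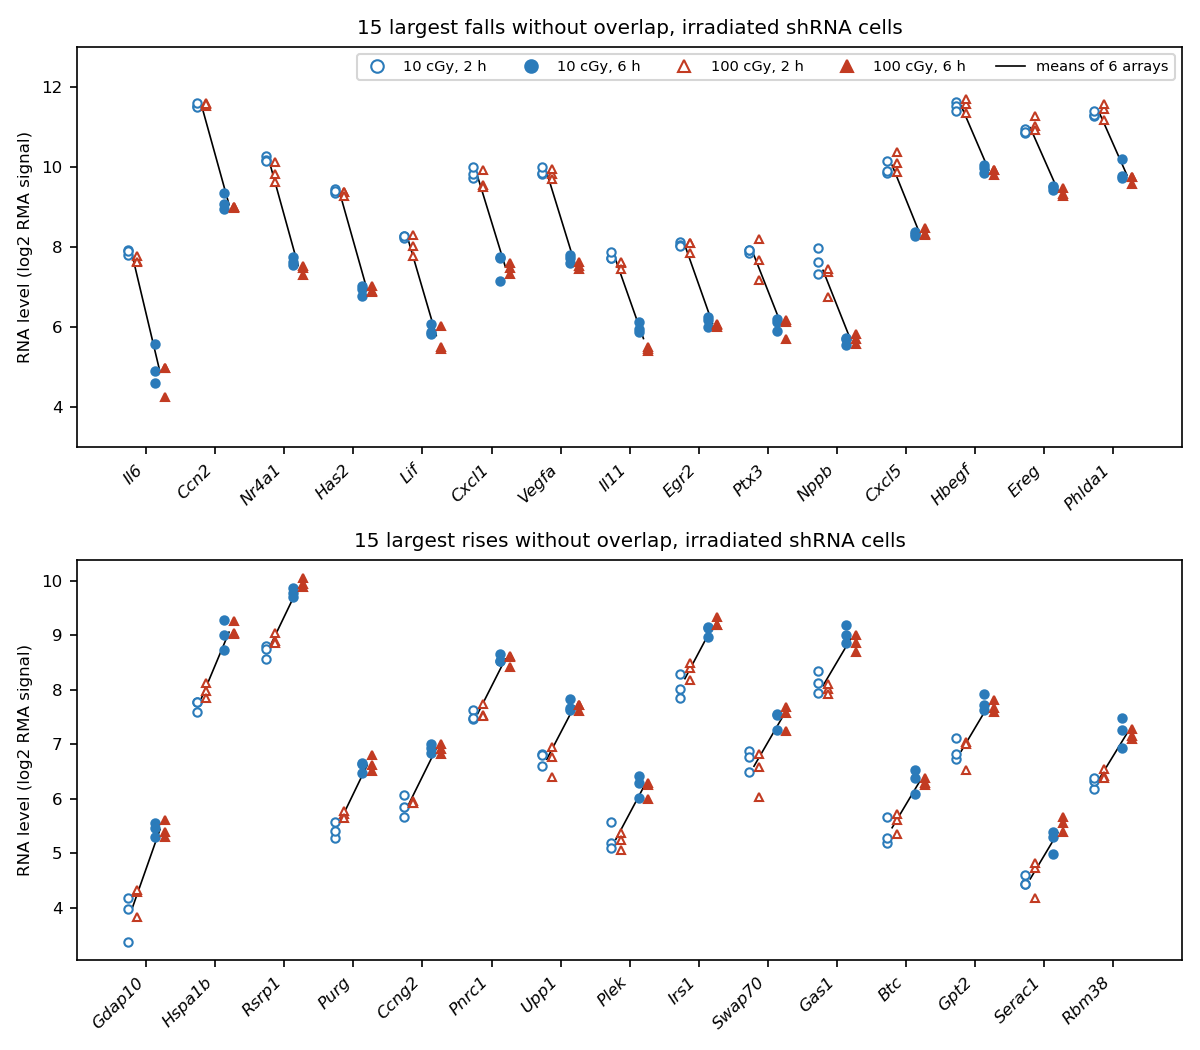
RNA level (log2 RMA signal) on each of the 12 arrays of irradiated shRNA cells, for the 15 genes with the largest fall (top) and the 15 with the largest rise (bottom) among called genes whose 2 h and 6 h arrays do not overlap; open symbols are 2 h, filled symbols 6 h, circles 10 cGy, triangles 100 cGy, and lines join the means of 6 arrays. The falls, down to -2.90 for Il6, are longer than the rises, up to 1.44 for Gdap10, whose 2 h signals lie under the low-signal limit.

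Cytokines of the interleukin 6 family were among the largest falls, and that of Il6 was the largest. They signal through receptor complexes that share the subunit gp130. Il6 RNA had a log2 signal between 7.64 and 7.94 (median 7.79) on the 6 arrays at 2 h and between 4.25 and 5.58 (median 4.94) at 6 h. The step was -2.90 ± 0.15 SE (adjusted p = 6.25e-09), and the 2 h and 6 h arrays did not overlap. Lif, which encodes leukemia inhibitory factor, went from 7.77 to 8.31 (median 8.24) at 2 h to 5.46 to 6.07 (median 5.85) at 6 h. Its step was -2.36 ± 0.11 SE (adjusted p = 1.62e-09). Il11 lay between 7.46 and 7.87 (median 7.69) at 2 h and between 5.40 and 6.13 (median 5.69) at 6 h, a step of -1.95 ± 0.08 SE (adjusted p = 3.48e-10). For all 3 cytokines the arrays of the 2 times did not overlap, at either dose.

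The promoters of these 3 cytokines are shown because they share the AP-1 letters TGACTCA, the site read by the FOS and JUN proteins, whose genes are discussed below. The stretches are the 250 bases before a RefSeq transcription start (GRCm38.p6), 5′ to 3′ on the strand of the gene, with the AP-1 letters in capitals; for Il11 it is the second of 2 starts.
Il6, chr5:30012864-30013113, plus strand: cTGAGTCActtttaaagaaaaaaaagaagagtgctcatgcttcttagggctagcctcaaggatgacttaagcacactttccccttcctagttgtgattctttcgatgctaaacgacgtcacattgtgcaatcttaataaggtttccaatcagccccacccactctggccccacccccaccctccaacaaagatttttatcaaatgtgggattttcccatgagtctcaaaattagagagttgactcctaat
Lif, chr11:4257318-4257567, plus strand: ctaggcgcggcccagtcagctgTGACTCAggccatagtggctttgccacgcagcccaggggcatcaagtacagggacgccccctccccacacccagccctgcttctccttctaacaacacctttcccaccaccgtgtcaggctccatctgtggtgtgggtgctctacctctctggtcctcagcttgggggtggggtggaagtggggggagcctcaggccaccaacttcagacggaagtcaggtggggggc
Il11, chr7:4778142-4778391, minus strand: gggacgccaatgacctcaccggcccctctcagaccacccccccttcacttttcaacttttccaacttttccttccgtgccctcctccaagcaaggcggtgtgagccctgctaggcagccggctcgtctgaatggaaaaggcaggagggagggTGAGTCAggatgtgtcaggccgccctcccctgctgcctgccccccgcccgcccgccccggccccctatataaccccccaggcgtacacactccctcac
Counted from the start of transcription, the match begins at position -249 in Il6, -228 in Lif and -98 in Il11. TGACTCA or its reverse complement was found in 5.20% of all 32851 RefSeq promoter windows of 300 bases. Over any window of a gene it was found in 4.88% of the 7035 tested genes with a window, in 4.42% of the 520 that fell and in 6.34% of the 631 that rose. Of the 146 genes with a window that fell by 0.5 or more on the log2 scale 11 held it (7.53%). The match is a description of these letters only.

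Chemokines and the acute-phase protein pentraxin 3 fell as well. Cxcl1 and Cxcl5, ligands of the neutrophil receptor CXCR2, had steps of -2.25 ± 0.11 and -1.70 ± 0.09 SE (adjusted p = 3.74e-09 and 5.42e-09). Cxcl1 lay between 9.51 and 10.00 (median 9.78) at 2 h and between 7.15 and 7.75 (median 7.55) at 6 h, without overlap. Ptx3, a soluble pattern recognition protein, had a step of -1.75 ± 0.14 SE (adjusted p = 7.12e-07). Of 28 tested NF-kB inflammatory genes 8 fell and 1 rose, or 32.1% called beside 16.3% of all tested genes. The list's median step was -0.06, beside 0.02 over all tested genes. The members that fell included Nfkbiz (-1.04 ± 0.09 SE), an atypical nuclear IkB protein, Ccl2 (-0.86 ± 0.19), the monocyte chemokine, and Cxcl10 (-0.79 ± 0.17). The member that rose was Tnfaip2 (0.60 ± 0.10 SE). Of 8 leukocyte markers on the array 5 were above the low-signal limit, among them Cd14 (mean 8.19 at 2 h) and Laptm5 (5.68). Ptprc (2.66 at 2 h, 2.71 at 6 h), Itgam (3.32 at 2 h) and Cd68 (3.57 at 2 h) lay under it.

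Several single growth factor genes fell, while the lists that hold them moved in both directions. Vegfa, the angiogenic growth factor, had log2 signals of 9.71 to 10.01 (median 9.84) at 2 h and 7.46 to 7.80 (median 7.63) at 6 h. Its step was -2.24 ± 0.07 SE (adjusted p = 2.02e-11). Of 26 tested hypoxia and glycolysis genes, a list that holds Vegfa, 3 fell and 2 rose (median 0.07). The share called, 19.2%, is near the 16.3% of all tested genes, so nothing is read from the count. Of that list 3 members were called when any of 4 arrays was left out (100 cGy 6 h replicates 1 and 3, 10 cGy 2 h replicates 1 and 3). Hbegf (-1.60 ± 0.08 SE) and Ereg (-1.56 ± 0.08), both ligands of the EGF receptor, fell without overlap between times. Btc, a ligand of the same receptor, rose by 0.85 ± 0.10 SE (adjusted p = 5.25e-05), from 5.19 to 5.71 at 2 h to 6.09 to 6.53 at 6 h. Of the 12 tested EGF receptor, ligand and sheddase genes 2 fell and 2 rose (33.3% called), the fourth being Adam12 (0.27 ± 0.07). The 4 members called did not move in 1 direction.

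Has2, which makes hyaluronan, had the largest change of 40 tested extracellular matrix genes. Its log2 signal was 9.28 to 9.46 (median 9.37) at 2 h and 6.79 to 7.03 (median 6.93) at 6 h, a step of -2.44 ± 0.06 SE (adjusted p = 4.32e-12). Thbs1 (-1.47 ± 0.21 SE), which encodes the matrix glycoprotein thrombospondin 1, and Col3a1 (-0.36 ± 0.08) also fell. Thbs1 was 6.00 on 10 cGy 6 h replicate 1, against 7.03 to 7.54 on the other arrays at 6 h. Of these 40 genes 5 fell and 1, Lamb1 (0.45 ± 0.11), rose, with a median of -0.06. The share of these 40 called in either direction is below the 16.3% of all tested genes, so nothing is read from the count. Of 44 actin and adhesion genes 5 fell and 0 rose (median -0.01), with Fhl2 at -0.73 ± 0.08 SE and Cav1 at -0.34 ± 0.06. The share called, 11.4%, is below the 16.3% of all tested genes and is not a result about the list. Without both arrays of raised Gapdh difference 8 of these 44 were called. Annexin A2 is a receptor for plasminogen and its activator. The plasminogen system list also holds matrix metalloproteases and their inhibitors. Of its 16 tested members 3 rose and 1 fell, or 25.0% called. Timp3, a metalloprotease inhibitor, fell by 1.25 ± 0.14 SE on the log2 scale. Plat, which encodes tissue plasminogen activator, rose by 0.51 ± 0.08 SE (adjusted p = 5.67e-04). The other members that rose were the metalloprotease genes Mmp10 and Mmp13. The rise of Mmp13 (0.76) lay under the low-signal limit at both times. Of 18 tested annexin and S100 genes 0 were called in either direction by limma, with 4 members at an unadjusted p under 0.05, and 1 to 3 were called under 10 of the 23 alternatives tried.

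Immediate early genes made up another group of falls. Of 29 tested members 15 fell and 2 rose, beside 7.49% and 8.85% of all tested genes, and the median step was -0.34. Nr4a1, an orphan nuclear receptor, had log2 signals of 9.62 to 10.28 (median 10.14) at 2 h and 7.31 to 7.75 (median 7.54) at 6 h, a step of -2.49 ± 0.09 SE (adjusted p = 4.90e-11). Egr2, a zinc finger factor, had a step of -1.95 ± 0.07 SE and Egr1 of -0.88 ± 0.07. Ccn2, a secreted matricellular protein also known as CTGF, lay between 11.51 and 11.60 (median 11.55) at 2 h and between 8.95 and 9.36 (median 9.01) at 6 h, a step of -2.49 ± 0.07 SE (adjusted p = 1.04e-11). Of the AP-1 subunits, Junb (-1.41 ± 0.07 SE), Jund (-0.71 ± 0.08) and Fosl1 (-0.28 ± 0.07) fell, and Jun rose (0.31 ± 0.09, adjusted p = 0.0336). Ptgs2, which encodes the prostaglandin synthase COX-2, fell by 1.32 ± 0.09 SE. The calls of Jun and of Zfp36 (0.29 ± 0.09), the other member that rose, were lost when any of 7 and any of 9 single arrays were left out.

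Feedback genes of the MAP kinase pathway moved in both directions. Of 17 tested members 5 fell and 3 rose (47.1% called, beside 16.3% of all tested genes), and the median was -0.07. Phlda1 (-1.56 ± 0.10 SE), Errfi1 (-0.67 ± 0.06), an inhibitor of the EGF receptor, and the phosphatase genes Dusp14 (-0.74 ± 0.09), Dusp10 (-0.51 ± 0.08) and Dusp6 (-0.42 ± 0.10) fell. The phosphatase genes Dusp1 (0.50 ± 0.10 SE) and Dusp7 (0.38 ± 0.06) and the transcription factor Etv4 (0.37 ± 0.08) rose. Genes of TGF-beta and BMP signalling were as divided, with 5 of 24 lower and 3 higher (33.3% called, median 0.03). Fst (-1.30 ± 0.10 SE) and Inhba (-1.21 ± 0.08), which encode follistatin and an activin subunit, and the inhibitors Skil (-0.96 ± 0.08) and Smad7 (-0.67 ± 0.11) fell, and Id3 (0.60 ± 0.12), Tgfb1 (0.45 ± 0.09) and Id2 (0.42 ± 0.12) rose. Without both arrays of raised Gapdh difference 7 of the 24 were lower and 6 higher.

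The promoters of Errfi1 and Plk2, a polo-like kinase gene that fell by 0.66 ± 0.11 SE, are shown because they hold the cAMP response element TGACGTCA, the letters read by CREB and ATF factors. They are again the 250 bases before a RefSeq start (GRCm38.p6), 5′ to 3′, with the element in capitals, and for Errfi1 the second of 2 starts.
Errfi1, chr4:150854820-150855069, plus strand: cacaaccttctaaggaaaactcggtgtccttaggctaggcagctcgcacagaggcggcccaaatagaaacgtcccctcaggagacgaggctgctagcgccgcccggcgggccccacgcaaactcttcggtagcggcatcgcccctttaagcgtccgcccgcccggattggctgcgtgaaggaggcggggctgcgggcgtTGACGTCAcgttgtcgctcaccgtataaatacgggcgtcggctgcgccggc
Plk2, chr13:110394794-110395043, plus strand: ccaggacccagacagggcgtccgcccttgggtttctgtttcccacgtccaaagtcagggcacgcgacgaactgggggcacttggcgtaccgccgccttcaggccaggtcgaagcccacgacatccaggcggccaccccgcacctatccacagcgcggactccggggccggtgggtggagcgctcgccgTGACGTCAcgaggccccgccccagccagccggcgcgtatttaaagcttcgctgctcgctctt
The element begins at position -51 in Errfi1 and -62 in Plk2. These 8 letters are their own reverse complement, so both strands are covered, and they were found in 1.79% of all windows of 300 bases. They were found in 27 of the 520 genes that fell (5.19%), in 12 of the 631 that rose (1.90%) and in 3.58% of the 7035 tested genes with a window. Of the 146 that fell by 0.5 or more 11 held them (7.53%). Among the 129 named genes with a window 7 held them. Epha2, Plk2, Errfi1, Brca2, Rad51c and Ppp1r15a fell, and Dusp1 rose.

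**Figure D2:**
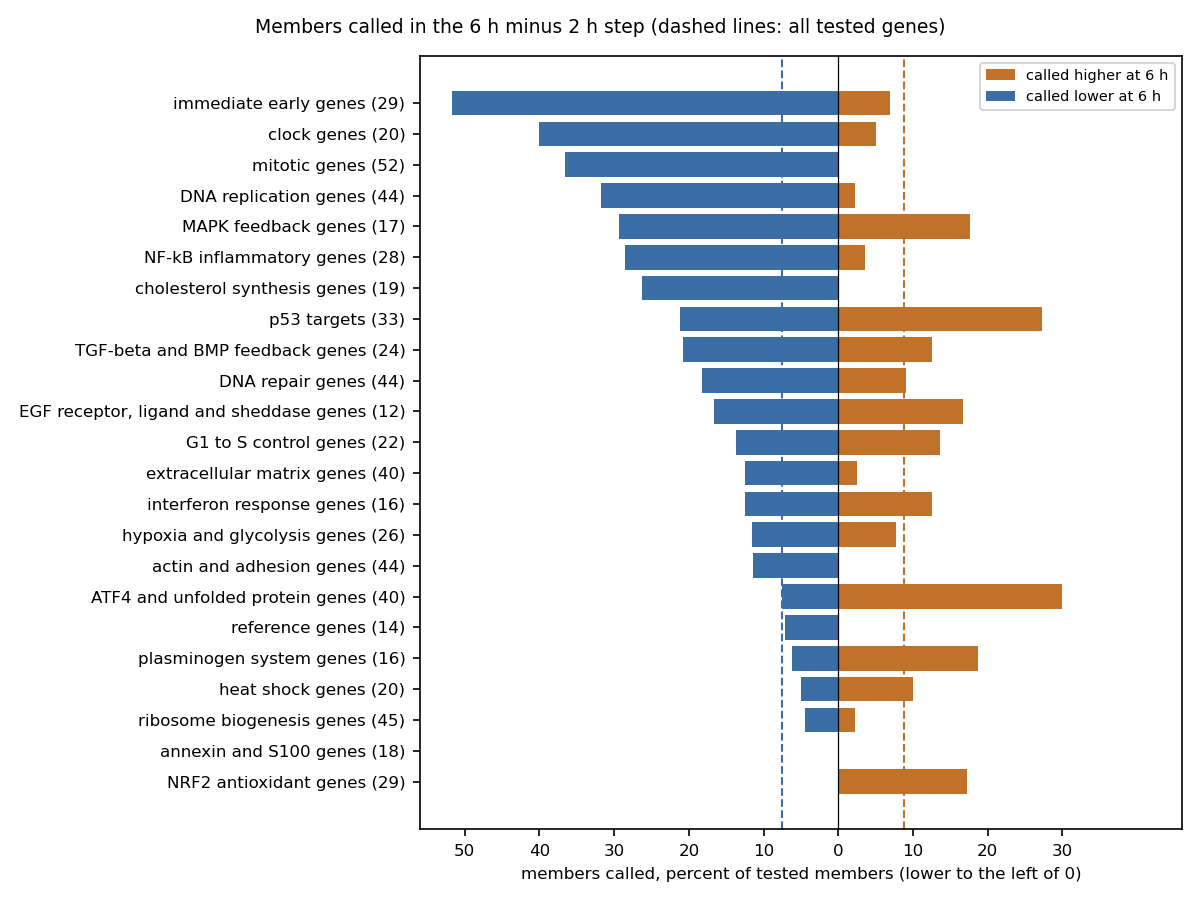
Percent of the tested members of 23 gene lists (number of tested members in parentheses) called lower (blue, to the left) or higher (orange, to the right) at 6 h than at 2 h in irradiated shRNA cells; dashed lines mark 7.49% lower and 8.85% higher among all 8675 tested genes. Immediate early genes had the longest bar to the left, with 15 of 29 lower, and ATF4 and unfolded protein genes the longest to the right, with 12 of 40 higher.

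Some genes of the circadian clock fell. The clock is a feedback loop in which BMAL1 (Arntl) and CLOCK drive the genes of their own repressors and of output factors. Of 20 tested members 8 fell and 1 rose, beside 7.49% and 8.85% of all tested genes, and 11 were not called; the median was -0.21. Dbp, an output factor, had log2 signals of 6.19 to 6.46 (median 6.30) at 2 h and 5.13 to 5.45 (median 5.28) at 6 h, a step of -1.05 ± 0.08 SE (adjusted p = 3.13e-07). The repressors Bhlhe40 (-1.16 ± 0.12 SE), Cry2 (-0.73 ± 0.12), Nfil3 (-0.72 ± 0.09), Nr1d2 (-0.47 ± 0.09) and Nr1d1 (-0.44 ± 0.10) fell. The member that rose was Arntl itself, by 0.43 ± 0.07 SE (adjusted p = 8.15e-04), from 7.02 to 7.27 at 2 h to 7.39 to 7.69 at 6 h, so that its 2 h and 6 h arrays did not overlap.

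Some genes of DNA replication and mitosis were lower at 6 h, and most members of both lists were not called. Of 52 tested mitotic genes 19 fell and 0 rose, beside 7.49% lower and 8.85% higher of all tested genes, with a median of -0.16. Spc25 (-0.47 ± 0.07 SE) and Nuf2 (-0.46 ± 0.08), both of the kinetochore complex NDC80, Plk4 (-0.46 ± 0.08), which starts centriole duplication, and Cdk1 (-0.38 ± 0.08) were among them. Spc25 had log2 signals of 8.14 to 8.31 at 2 h and 7.61 to 7.90 at 6 h, without overlap. Of 44 DNA replication genes 14 fell and 1 rose (median -0.18), among them the clamp loader gene Rfc4 (-0.58 ± 0.09 SE) and Rrm2 (-0.44 ± 0.06), a subunit of ribonucleotide reductase. The member that rose was the kinase gene Cdc7 (0.52 ± 0.09). Without 10 cGy 2 h replicate 1 the count of called replication genes was 9, with 8 lower, and with the random replicate block it was also 9.

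Genes of DNA repair and of the passage from G1 to S moved in both directions. Brca2, of homologous recombination, fell (-0.54 ± 0.09 SE, adjusted p = 5.78e-04). Of 44 DNA repair genes 8 fell and 4 rose (median -0.08), or 27.3% called beside 16.3% of all tested genes. This count was 6 without 100 cGy 6 h replicate 1, and 7 without 100 cGy 2 h replicate 1 or without 10 cGy 2 h replicate 1 or 3, and 5 (1 higher, 4 lower) with a replicate block of 6 pairs of dose and number and with the random one. Of 22 tested G1 to S control genes 3 fell and 3 rose, also 27.3% called. The inhibitor genes Cdkn1b (0.55 ± 0.12 SE) and Cdkn2d (0.36 ± 0.09) rose, and Cdc25a (-0.31 ± 0.08) and Ccne2 (-0.36 ± 0.10) fell. Without 100 cGy 6 h replicate 3, 3 of the 22 were called.

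Targets of p53 did not move together. Of 33 tested members 9 rose and 7 fell (48.5% called, beside 16.3% of all tested genes), and the median was 0.01. Trp53inp1, a stress-induced partner of p53, rose by 1.05 ± 0.12 SE (adjusted p = 2.43e-05), from 5.07 to 6.19 (median 5.55) at 2 h to 6.13 to 6.85 (median 6.76) at 6 h; 1 array of 10 cGy at 6 h (6.13) lay below 1 array of 100 cGy at 2 h (6.19). Ccng2 (1.02 ± 0.07 SE), Bcl2l1 (0.41 ± 0.12), Bbc3 (0.40 ± 0.08) and the phosphatase gene Ppm1d (0.35 ± 0.07) rose. Plk3 (-0.74 ± 0.08 SE), Fas (-0.73 ± 0.10), which encodes a death receptor, Plk2 (-0.66 ± 0.11) and Rrm2b (-0.40 ± 0.10) fell. Mdm2, which encodes the ubiquitin ligase of p53, fell by 0.25 ± 0.07 SE on the log2 scale (adjusted p = 0.0157). Its 6 arrays at 100 cGy were higher than the 6 at 10 cGy at the same time, with 10.43, 10.43 and 10.54 against 9.73 to 9.86 at 2 h and 10.07, 10.15 and 10.15 against 9.59 to 9.73 at 6 h. The call of Mdm2 did not hold for the mean of its probe sets (-0.20, adjusted p = 0.159), with a replicate block of 6 pairs of dose and number (-0.25, adjusted p = 0.0607) or with the random replicate block (-0.25, adjusted p = 0.0515). Cdkn1a, which encodes p21 (step -0.10 ± 0.06 SE, adjusted p = 0.324), and Ccng1 (-0.13 ± 0.07, adjusted p = 0.237) did not pass the test.

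Among the rises, genes of the amino acid response formed a group. They are targets of ATF4, the factor that restores amino acid supply under stress. Of 40 tested ATF4 and unfolded protein genes 12 rose and 3 fell, and the median was 0.08. That is 37.5% called, beside 16.3% of all tested genes. Ddit3, the stress factor CHOP, had log2 signals of 7.04 to 7.50 (median 7.32) at 2 h and 7.95 to 8.22 (median 8.09) at 6 h, a step of 0.79 ± 0.08 SE (adjusted p = 8.74e-06). Gpt2 (0.85 ± 0.10 SE), an alanine aminotransferase, Psph (0.63 ± 0.11) of serine synthesis, Cth (0.57 ± 0.08) of cysteine synthesis and the transporter gene Slc7a5 (0.46 ± 0.09) rose. Of the 3 members that fell, Ppp1r15a (-0.36 ± 0.08) and Cebpb (-0.31 ± 0.07) are stress-induced regulators and Xbp1 (-0.36 ± 0.10) acts in the unfolded protein response.

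The other large rises belonged to genes of varied function. Hspa1b, an inducible HSP70 chaperone, had log2 signals of 7.59 to 8.13 (median 7.81) at 2 h and 8.73 to 9.28 (median 9.04) at 6 h, a step of 1.21 ± 0.09 SE (adjusted p = 5.83e-07). Its near-identical copy Hspa1a can share its signal, so which of the pair was measured is uncertain. Of 20 heat shock genes 2 rose and 1 fell, and without 100 cGy 6 h replicate 2, 1 of the 20 was called. Ccng2 (from 5.67 to 6.06 to 6.82 to 7.01), Irs1 (0.96 ± 0.09 SE), the insulin receptor substrate, and Gas1 (0.86 ± 0.09), a growth arrest gene, rose without overlap. So did Rsrp1 (1.06 ± 0.07 SE), Purg (1.05 ± 0.08), Pnrc1 (7.47 to 7.74 at 2 h, 8.43 to 8.66 at 6 h), Upp1 (0.97 ± 0.09), Plek (0.96 ± 0.10) and Swap70 (0.88 ± 0.13). Gdap10 had the largest step (1.44 ± 0.13 SE), but 2 h signals of 3.37 to 4.32 put it under the low-signal limit at that time. Serac1 (0.85 ± 0.11) and the RNA-binding protein gene Rbm38 (0.83 ± 0.09) complete the 15. Trp53inp1 rose as far but is not among them, since its times overlapped.

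The remaining lists held 1 to 5 called members each, beside 8.85% of all tested genes higher and 7.49% lower. Of 19 cholesterol synthesis genes 5 fell and 0 rose (median -0.07), with Idi1 at -0.34 ± 0.07 SE, and 3 were called without 100 cGy 2 h replicate 1, 100 cGy 6 h replicate 2, 10 cGy 2 h replicate 3 or 10 cGy 6 h replicate 3, and with either the 6 pairs or the random block of the replicate number. Of 29 NRF2 antioxidant genes 5 rose and 0 fell (median 0.07), with Sqstm1 at 0.49 ± 0.10, and 2 were called without any single array of 100 cGy at 6 h or without 10 cGy 2 h replicate 2. Of 16 interferon response genes 2 rose and 2 fell, with Ifit1 at -0.62 ± 0.08. Of 45 ribosome biogenesis genes 1 rose and 2 fell, and 1 was called without 100 cGy 6 h replicate 2 and 5 without 100 cGy 2 h replicate 2 or 3. Of 14 reference genes 0 rose and 1, Tfrc (-0.30 ± 0.07), fell.

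Untreated shRNA cells gave a view of how these genes moved without radiation, at other times. Most of the largest falls had a counterpart in cells that were never irradiated. Of the 15 genes named for the largest fall 14 were also lower at 24 h than at 2 h in untreated cells; the exception by the test was Cxcl5 (-0.26, adjusted p = 0.163). Of the 15 named for the largest rise 10 were also higher at 24 h and 2, Plek and Btc, were lower. Il6 differed by -4.05 in untreated cells (adjusted p = 1.57e-13), Has2 by -4.98 (6.46e-18) and Vegfa by -3.66 (7.25e-16). Over the 30 genes named for the largest rise or fall, the irradiated mean at 2 h minus the untreated mean at 2 h ranged from -0.42 to 0.13. The p53 targets Mdm2 and Trp53inp1, which are not among the 30, were higher at 2 h after 100 cGy (10.43 to 10.54 and 5.79 to 6.19) than in untreated cells (9.78 to 9.93 and 5.40 to 5.58), with no overlap. At 2 h after 10 cGy Mdm2 (9.73 to 9.86) overlapped the untreated arrays, and Trp53inp1 (5.07 to 5.31) lay below them. No test was made of these differences. Il6 had 7.77 to 7.82 on the 3 untreated arrays at 2 h, within the 7.64 to 7.94 of the irradiated arrays. The untreated difference called 1664 genes (19.2%), 878 (10.1%) higher and 786 (9.06%) lower. It shared 583 genes with the step, which are 41.1% of the step's calls and 35.0% of its own, and 454 of them had the same sign. The 2 differences in means share no array. The spread in the untreated test was set by all 24 shRNA arrays, those of the step among them. Its calls are therefore not independent of the step's arrays.

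The remaining 129 shared genes had opposite signs: 60 of the 650 genes that fell in the step were higher at 24 h in untreated cells, and 69 of the 768 that rose were lower. These shares, 9.2% and 9.0%, lie beside 10.1% of all tested genes higher and 9.1% lower in untreated cells, so nothing is read from the count. Dbp fell by 1.05 in the step and was higher by 1.71 ± 0.12 SE at 24 h in untreated cells (adjusted p = 3.32e-10). The secreted metalloprotease genes Adamts1 (step -0.92 ± 0.08, untreated 0.71 ± 0.09) and Adamts5 (-1.12 ± 0.11, 0.71 ± 0.15) did likewise. In the other direction, Plek, a substrate of protein kinase C, rose by 0.96 ± 0.10 SE in the step and was lower by 1.09 ± 0.18 at 24 h in untreated cells. Ggct (0.70 ± 0.09 and -1.72 ± 0.15), of glutathione turnover, the drug transporter gene Abcb1a (0.68 ± 0.09 and -0.75 ± 0.14) and Btc (0.85 and -0.57) followed the same pattern. These genes were chosen for that pattern, so their values are a description. Irradiated cells at 24 h lay near the untreated ones, with Dbp means of 7.57 at 10 cGy and 7.65 at 100 cGy against 7.95 untreated, and Plek means of 4.38 and 4.37 against 4.32. Levels of Dbp and Plek at 6 h were therefore outside the range of their 2 h and 24 h means.

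**Figure D3:**
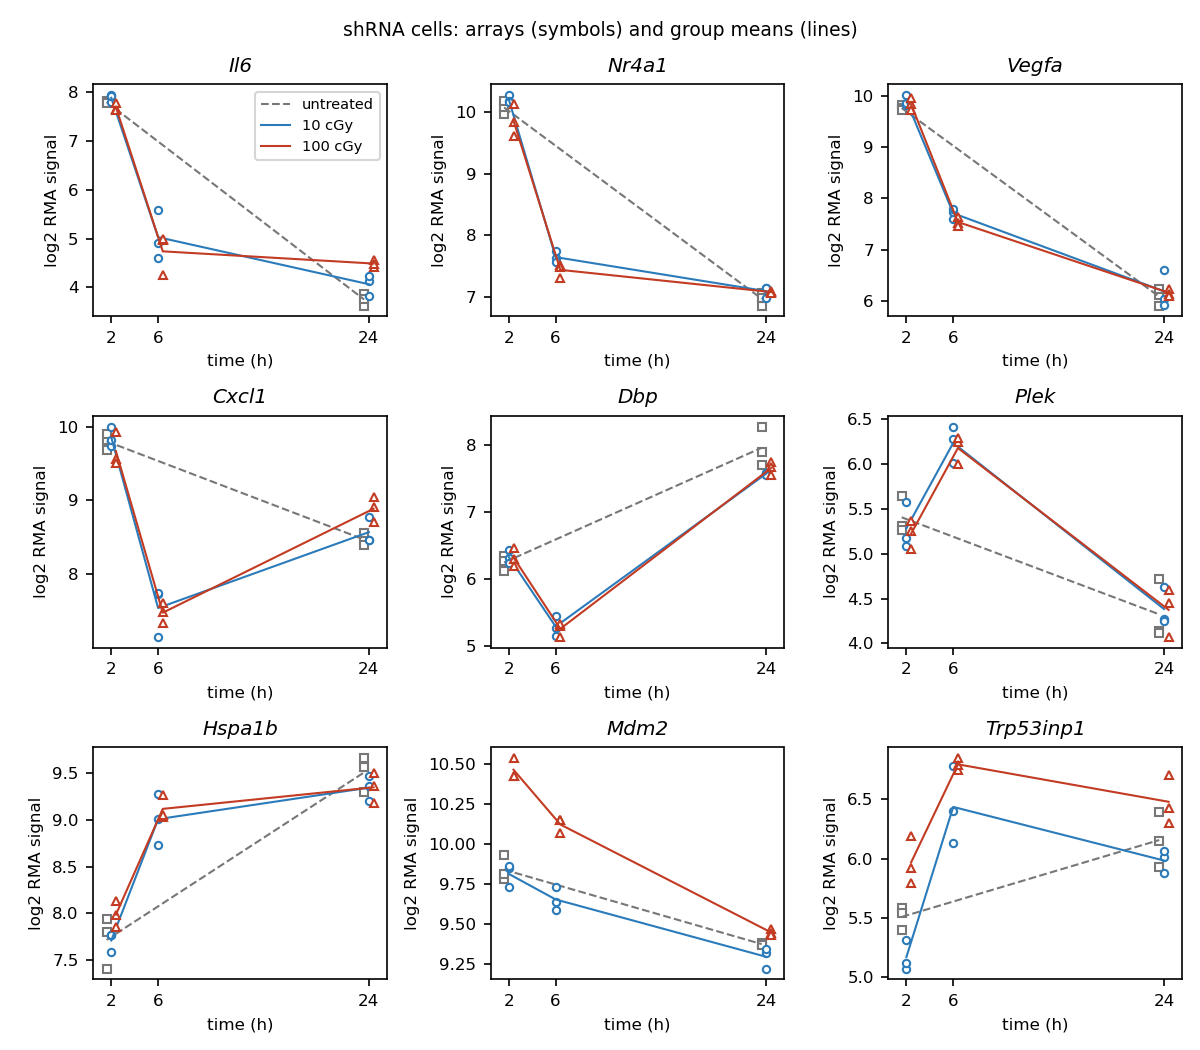
RNA level (log2 RMA signal) against time in hours for 9 genes in shRNA cells; symbols are arrays (grey squares untreated, blue circles 10 cGy, red triangles 100 cGy, set slightly apart), lines join group means, and the dashed line joins untreated 2 h to 24 h with no array between. Dbp dips to 5.27 at 6 h, Plek peaks at 6.21, and Mdm2 at 100 cGy lies above 10 cGy at 2 h and 6 h.

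The genes called at both doses moved in the same direction at each. The log2 step of Il6 was -2.85 ± 0.22 SE after 10 cGy and -2.95 ± 0.22 after 100 cGy, and that of Vegfa -2.18 ± 0.10 and -2.29 ± 0.10. Ccn2 had steps of -2.42 ± 0.11 and -2.56 ± 0.11, and Hspa1b of 1.30 ± 0.14 and 1.13 ± 0.14. Tested on its own, 10 cGy gave 441 called genes (5.08%), with 233 higher (2.69%) and 208 lower (2.40%), and 100 cGy gave 520 (5.99%), with 217 higher (2.50%) and 303 lower (3.49%). The doses shared 290 called genes, which are 65.8% of the first and 55.8% of the second, and all 290 had the same sign. Across the 8675 genes the steps at the 2 doses had a Pearson correlation of 0.77, and genes are not independent replicates.

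The difference between doses was itself tested, and 0 genes (0%) passed in limma, with 137 at an unadjusted p under 0.05 and a smallest adjusted p of 0.999. That does not show that the doses act alike. The 95% interval of the difference lay within -1 and 1 for 8441 of the 8675 genes, and its median half-width was 0.39. For Il6 the step at 100 cGy minus that at 10 cGy was -0.09 (95% interval -0.77 to 0.58), for Nppb, a natriuretic peptide gene, 0.50 (-0.05 to 1.04), for Mdm2 -0.19 (-0.46 to 0.09) and for Il11 -0.32 (-0.63 to -0.02). Simulated differences of 1 on the log2 scale were recovered in 69% of cases and of 0.5 in 9%, so that small differences between doses were not detectable with 3 arrays a group. Leaving out 1 array moved the calls by over 1.5 times. At 10 cGy they were 255, 234 and 217 without 2 h replicates 1, 2 and 3, and at 100 cGy 318 without 2 h replicate 1 and 223, 235 and 256 without 6 h replicates 1, 2 and 3. Without both arrays of raised Gapdh difference the counts were 667 and 863.

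**Figure D4:**
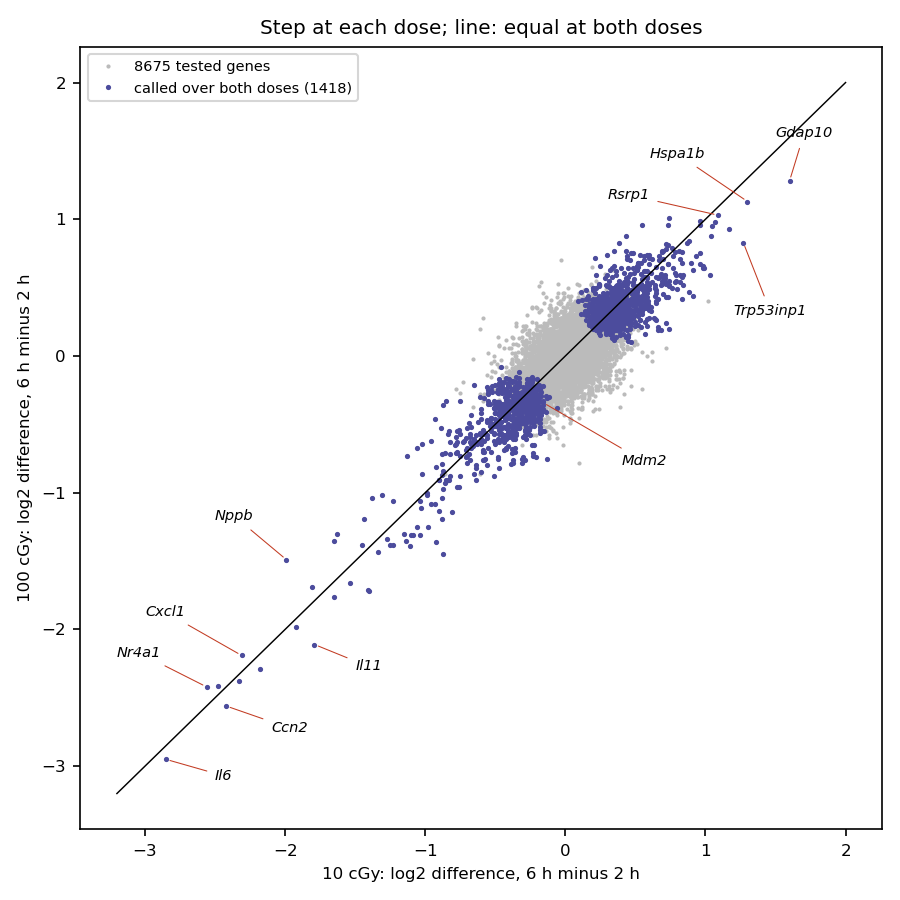
Log2 difference between 6 h and 2 h after 100 cGy (vertical axis) against that after 10 cGy (horizontal axis) for 8675 tested genes in shRNA cells; blue points are the 1418 called over both doses, and the line marks equal steps. Il6 lies at -2.85 and -2.95, and the points spread around the line with a correlation of 0.77 across genes.

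In the vector line most of the leading genes moved the same way, and a smaller set differed. 3 vector arrays at 2 h, replicate 3 of each dose group and of the untreated group, stood apart: Il6 was 3.31, 3.37 and 3.37 on them and 6.11 to 6.43 on the other 6. The vector comparisons are therefore given with and without the 2 irradiated ones. The vector step called 1226 genes (14.1%), 680 higher (7.84%) and 546 lower (6.29%), and 2024 without those arrays; with the random replicate block it called 802. It shared 539 genes with the step of the shRNA line (38.0% of the shRNA calls, 44.0% of the vector calls), 530 of them with the same sign; without the arrays apart it shared 843, of which 819 had the same sign. Of the 30 genes named for the largest rise or fall, 29 had the same sign in vector cells with and without those arrays, and 19 and 29 were called. The vector step of Il6 was -2.08 ± 0.54 SE on the log2 scale, and -3.06 without the arrays apart.

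The gene that went against its direction in the shRNA line was Ccng2, which encodes cyclin G2, an inhibitor of proliferation. In shRNA cells it lay between 5.67 and 6.06 (median 5.93) at 2 h and between 6.82 and 7.01 (median 6.93) at 6 h. In vector cells it lay between 6.79 and 7.33 (median 6.97) at 2 h and between 6.05 and 6.45 (median 6.31) at 6 h. It rose in 1 line and fell in the other without overlap between times, and the difference of the steps was 1.75 ± 0.10 SE (adjusted p = 6.51e-10), or 1.78 without the arrays apart. In total 135 genes (1.56%) had a step that differed between lines, 63 (0.726%) more positive and 72 (0.830%) more negative in shRNA cells. Without the arrays apart 288 genes were called, among them 125 of the 135 in the same direction. Without 10 cGy 2 h replicate 3 of the shRNA line 85 were called, and 67 with the random replicate block, all among the 135.

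Of those 135 genes 66 had a called step in the shRNA line alone, 39 in the vector line alone, 20 in both in the same direction and 9 in both in opposite directions, and 1 in neither. Nr4a2 and Sgk1, a serum- and glucocorticoid-regulated kinase gene, fell in the shRNA line and were not called in the vector line. Nr4a2 lay between 7.61 and 8.23 (median 7.79) at 2 h and between 6.28 and 6.67 (median 6.56) at 6 h in shRNA cells, and between 7.11 and 7.49 and between 7.11 and 7.66 in vector cells. The difference of its steps was -1.39 ± 0.13 SE (adjusted p = 3.39e-06), and that of Sgk1 -1.13 ± 0.17 (adjusted p = 5.68e-04). Nppb and Dbp also fell in the shRNA line, from levels well above those of the vector line (Nppb 2 h medians 7.41 and 4.95, Dbp 6.30 and 3.80). The differences of their steps between lines were -1.55 ± 0.20 SE for Nppb and -1.32 ± 0.29 for Dbp. Vector signals of Dbp at 2 h reached down to 3.14, under the low-signal limit, and without the arrays apart Dbp was called higher at 6 h in vector cells.

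For Tubb3, Rgs4 and H1f2 the larger step was that of the vector line. Tubb3, a neuronal-type tubulin gene, rose there from 4.89 to 5.09 at 2 h to 5.85 to 6.52 at 6 h, and had a step of -0.04 ± 0.15 SE in shRNA cells (difference -1.35 ± 0.17, adjusted p = 1.37e-04). Rgs4, a regulator of G protein signalling, fell by 0.85 ± 0.10 SE on the log2 scale in vector cells, while its shRNA signals of 3.65 to 4.20 lay under the low-signal limit. H1f2, a linker histone gene, fell in both lines (-1.01 ± 0.08 in shRNA and -2.08 ± 0.18 in vector cells), with a difference of 1.06 ± 0.21 (adjusted p = 0.00889). Mmp13, a collagenase gene, had a difference of 1.12 ± 0.15, but all its shRNA signals, 2.88 to 4.19, lay under the low-signal limit against 7.20 to 8.02 in vector cells. Havcr2 lay between 5.72 and 6.26 at 2 h and between 6.64 and 6.86 at 6 h in shRNA cells, with vector medians of 4.64 and 4.63. Its difference (0.89 ± 0.21, adjusted p = 0.0295) lost its call when any of 7 single arrays was left out and with the random replicate block (adjusted p = 0.0795). Since each construct is carried by 1 line, the effect of the shRNA and other differences between the lines cannot be told apart.

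**Figure D5:**
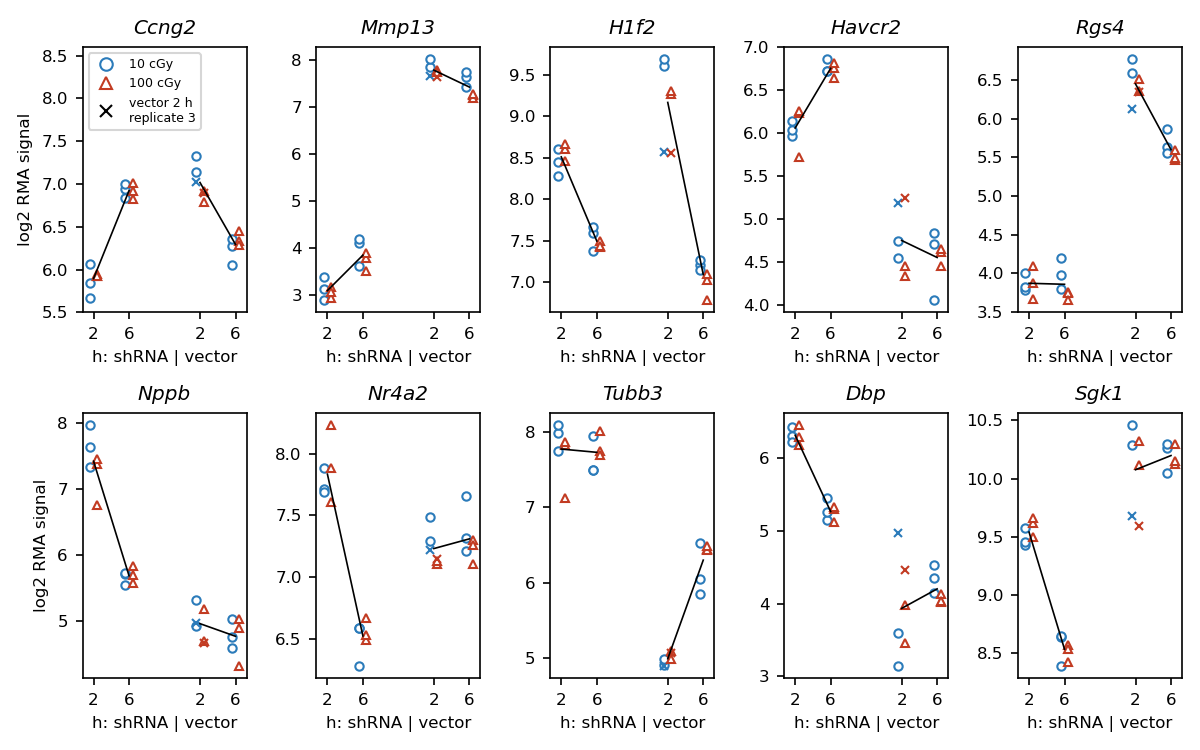
RNA level (log2 RMA signal) at 2 h and 6 h in irradiated shRNA cells (left of each panel) and vector cells (right) for the 5 genes with the most positive (top) and the 5 with the most negative (bottom) difference of steps; circles are 10 cGy, triangles 100 cGy, crosses the 2 vector 2 h arrays that stand apart, and lines join means of 6 arrays. Ccng2 rises in shRNA cells and falls in vector cells, and Nr4a2, Dbp and Sgk1 fall in shRNA cells alone.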

How the data were processed

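RNA was hybridised to 47 one-colour Affymetrix arrays, of which 12 form the comparison described here. The authors deposited log2 signals processed by RMA, per the submitters' processing notes; the RMA version and its settings are not given in the sources used here. Of 22690 probe sets 20380 had 1 gene symbol in the platform annotation, and each of the 12393 genes was represented by its probe set of highest mean. Genes whose mean signal was in the bottom 30% (under 4.35 on the log2 scale) were not tested, which left 8675. limma 3.58.1 (R 4.3.3) fitted dose and time to the 12 arrays; doses, lines and untreated times were compared with group means. Genes were called at a two-sided Benjamini-Hochberg adjusted p of 0.05. The number of arrays limits the precision.

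The members and lists were chosen with earlier results of these data known. Named genes were the 15 largest rises and 15 largest falls among called genes without overlap between times, the 5 most positive and 5 most negative differences between lines, up to 6 members of each list with the smallest p, and Anxa2, Cdkn1a, Mdm2 and Ccng1. Other list members and the genes of opposite sign were named after their values were seen. The fits were tested on simulated data with 200 of 8675 genes changed, where the step recovered 98% of changes of 1 and 83% of changes of 0.5 on the log2 scale. Alternatives covered the fit, the filter, the choice of probe set, centring, weights, a replicate block, fixed or random, and leaving out arrays.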

Additional observations from a re-analysis of the deposited data

Results flagged for a closer look

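In the 70 groups of arrays tested, 4 values lay far from the other 5 arrays of their time. On 10 cGy 6 h replicate 1 Ccn2 had a log2 signal of 9.36 (nearest array 9.07), Phlda1 10.21 (nearest 9.77) and the Gapdh 3′ minus 5′ difference was 1.062 (nearest 0.163). On 100 cGy 2 h replicate 2 the Gapdh difference was 0.492 (nearest 0.129). Of 70 groups of arrays tested, chance sets apart about 1 in 20. Other genes held such values too. On 10 cGy 6 h replicate 1 Thbs1 was 6.00 (nearest 7.03), Ankrd1 7.72 (nearest 8.69) and Fdft1 7.12 (nearest 6.42).

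The step differed between the shRNA and the vector line for 10 named genes by limma's test of the difference. It was more positive in shRNA cells for Ccng2 (1.75), Mmp13 (1.12), H1f2 (1.06), Havcr2 (0.89) and Rgs4 (0.84). It was more negative for Nppb (-1.55), Nr4a2 (-1.39), Tubb3 (-1.35), Dbp (-1.32) and Sgk1 (-1.13).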

How the results depend on the processing

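The step called 1418 genes, 1094 to 1585 when 1 array was left out, 1868 with means of all 47 arrays and 1292 with no low-signal filter. After 10 cGy the calls were 441, and 790 with means of all 47 arrays, 1628 with array weights, 667 without both arrays of raised Gapdh difference and 217 to 385 with 1 array left out. After 100 cGy they were 520, and 864, 1954, 863 and 223 to 581. The difference between lines had 135 calls, 247 with means of all arrays, 1171 with array weights, 288 without the vector arrays that stand apart and 85 to 169 with 1 array left out. The vector step had 1226 calls, 2278 with array weights, 2024 without the arrays apart and 878 to 1633 with 1 array left out. The untreated difference had 1664 calls, 2955 with array weights and 1223 to 1467 with 1 array left out. The dose difference had 0 calls by limma in every alternative run, with 137 genes at an unadjusted p under 0.05. The cause of these shifts was not tested.

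With the replicate number as a block the step had 1448 calls (1106 with 6 pairs of dose and number), 10 cGy 418, 100 cGy 494, the dose difference 0, the lines 166, the vector step 1563 and the untreated difference 1776. Same-numbered arrays of different times correlated between -0.52 and 0.40, with 1 of 12 pairs above 0.1; within a time 5 of 6 pairs were above 0.1. With the number within a time as a random block, chosen after seeing the data, the step had 952 calls, 10 cGy 414, 100 cGy 489, the lines 67, the vector step 802 and the untreated difference 1647. The calls in lists then moved by over 1.5 times for interferon (2), replication (9), G1 to S (3), repair (5), cholesterol (3), ribosome (1), heat shock (1), NRF2 (2) and hypoxia genes (3). Of 1123 values of named genes 1110 kept their side of the threshold and 0 reversed.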

Other observations

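Other promoter letters were counted in the same windows as a description. The E2F letters TTTCCCGC were found in 3.46% of genes that fell, 1.43% of those that rose and 2.54% of the tested genes with a window, and the amino acid response letters TGATGCAA in 0.58%, 1.43% and 0.78%. Of the 1418 called genes 582 had another tested probe set, and in 497 of them all probe sets had the same sign. 4 genes had a probe set called in the opposite direction, namely Dtl (-0.65), Dyrk1a (-0.59), Pnn (0.35) and Ska2 (0.25), where the values are those of the probe set used.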
